A study of Mus musculus with 6 samples.

Results

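The Wnt ligands, their receptors and their antagonists were followed in cultured primary mouse cells labelled as osteocytes, the cells embedded in bone matrix. The members were every gene whose symbol names a Wnt ligand, a Frizzled receptor, a secreted frizzled-related protein, a Dickkopf protein or an R-spondin, together with a named set of co-receptors, R-spondin receptors and inhibitors and with *Axin2*, *Lef1* and *Tcf7*. This gave 58 of the 56748 genes in the table, and 41 of them had enough counts to be tested. RNA sequencing had been performed on 6 libraries, 3 labelled WT and 3 labelled cKO. The cells came from long bones flushed of marrow and digested with collagenase and EDTA, and they were grown for 7 days on plates. In all 6 cultures lipopolysaccharide (10 ng/mL) was given for 3 h and aluminum hydroxide (20 µg/mL) for a further 3 h, the pair being used to induce pyroptosis, a lytic cell death carried out by gasdermin D. No unstimulated culture was analysed here, so the values describe stimulated cells only. WT mice are described as C57BL/6J, and the isolation method names C57BL/6 donors 7 weeks old. No age is stated there for the cKO donors. The cKO mice carried *Gsdmd* fl/fl alleles with DMP1-Cre, a transgene in which the promoter of dentin matrix protein 1 drives the recombinase. Whether WT mice carried a floxed allele or Cre, and whether each library came from a mouse of its own, is not given in the sources used here, so p-values measure only the spread between these libraries.

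Wnt proteins are lipid-modified signals that bind a Frizzled receptor together with Lrp5 or Lrp6 on the receiving cell. Binding disables the complex that degrades beta-catenin, which then enters the nucleus and acts with TCF and LEF factors on target genes such as *Axin2*, while other Wnts work through Ror and Ryk receptors without beta-catenin. Secreted inhibitors trap the ligand or block the co-receptor, and R-spondins, bound by Lgr receptors, protect Frizzled from removal. In bone this pathway is best known for promoting osteoblast function, and osteocytes in bone are a source of its inhibitors sclerostin and Dickkopf 1.

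The libraries held between 39566835 and 49734046 counts, so that 3 counts, the floor used here, corresponded to between 0.0604 and 0.0773 CPM (counts scaled to a TMM-normalized library total of 1000000). *Gsdmd*, the deleted gene, measured 13.5, 14.1 and 14.1 CPM in WT and 21.0, 23.6 and 23.0 CPM in the libraries labelled cKO, which is higher and not lower. These counts cover the whole gene and do not show whether the floxed exons were removed, which was not tested. *Xist*, transcribed from the inactive X chromosome, had at most 4 counts per WT library and at least 44817 per library labelled cKO, and 4 Y-linked genes were at 0 in every library labelled cKO, so sex and genotype cannot be told apart, although the methods describe sex-matched mice. None of the 58 members lies on X or Y. Of the osteocyte markers, *Sost* was at 0 in every library, *Dmp1* had 0 to 6 counts, *Mepe* 0 to 2, *Phex* 2 to 22 and *Fgf23* 0 to 34. Only 3 of the 8 on the list could be tested (1 lower), and the name osteocyte is used here as the labels give it. The list summed to 553 to 591 CPM in WT and 515 to 541 CPM in the libraries labelled cKO, mostly from *Ackr3* and *Pdpn*, which other cells express too. Macrophage markers were higher for 11 of 11 genes, with summed levels of 1125 to 1266 CPM in WT and 6081 to 6412 CPM in the libraries labelled cKO. Osteoblast markers summed to 5571 to 6207 CPM and 3609 to 3890 CPM, mostly from *Col1a1*, which was lower. Of the 5 tested, 3 were lower and 2, *Alpl* and *Ibsp*, were higher. Smooth muscle and pericyte markers summed to 751 to 910 CPM and 364 to 416 CPM, mostly from *Acta2* (4 of 4 lower). Chondrocyte markers summed to 1962 to 2173 CPM and 2923 to 3111 CPM (3 higher and 2 lower of 5 tested). That sum came mostly from *Comp*, which was higher, and *Col2a1*, which was lower. Fibroblast markers were 2 higher and 4 lower at 858 to 903 CPM and 797 to 823 CPM, endothelial markers 1 higher and 4 lower at sums under 7 CPM, osteoclast markers 2 higher and 2 lower at 142 to 152 CPM and 150.2 to 181 CPM, and tendon markers 1 lower at 37.0 to 37.4 CPM and 29.6 to 34.2 CPM. The adipocyte markers *Lep*, *Plin1* and *Cfd* were at 0. The part of these marker shifts in the values that follow was not tested.

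The Wnt genes were shifted in both directions, with 6 of the 9 tested ligands lower, the inhibitors split between both directions and both tested R-spondins higher. A gene was called when edgeR's quasi-likelihood test gave an adjusted p under 0.05, the adjustment (Benjamini-Hochberg) running over all 17146 genes tested. Among the 41 members tested, 13 were higher in the libraries labelled cKO (31.7%, beside 20.1% of all genes tested) and 20 were lower (48.8%, beside 19.2%). At 2-fold or more, 5 were higher (12.2%, beside 6.56%) and 11 were lower (26.8%, beside 4.64%). The libraries of the groups did not overlap for 35 of the 41 (85.4%, beside 49.2%). The median log2 fold change of the members was -0.29, and that of all genes tested was 0.0077. In bulk RNA, fewer cells of a type and less RNA per cell cannot be told apart, which holds for every value given here. These counts describe the 41 members that passed the filter on low counts. Of the 17 that did not, 8 had no count in any library and 9 reached at most 14 counts in a library.

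**Figure D1:**
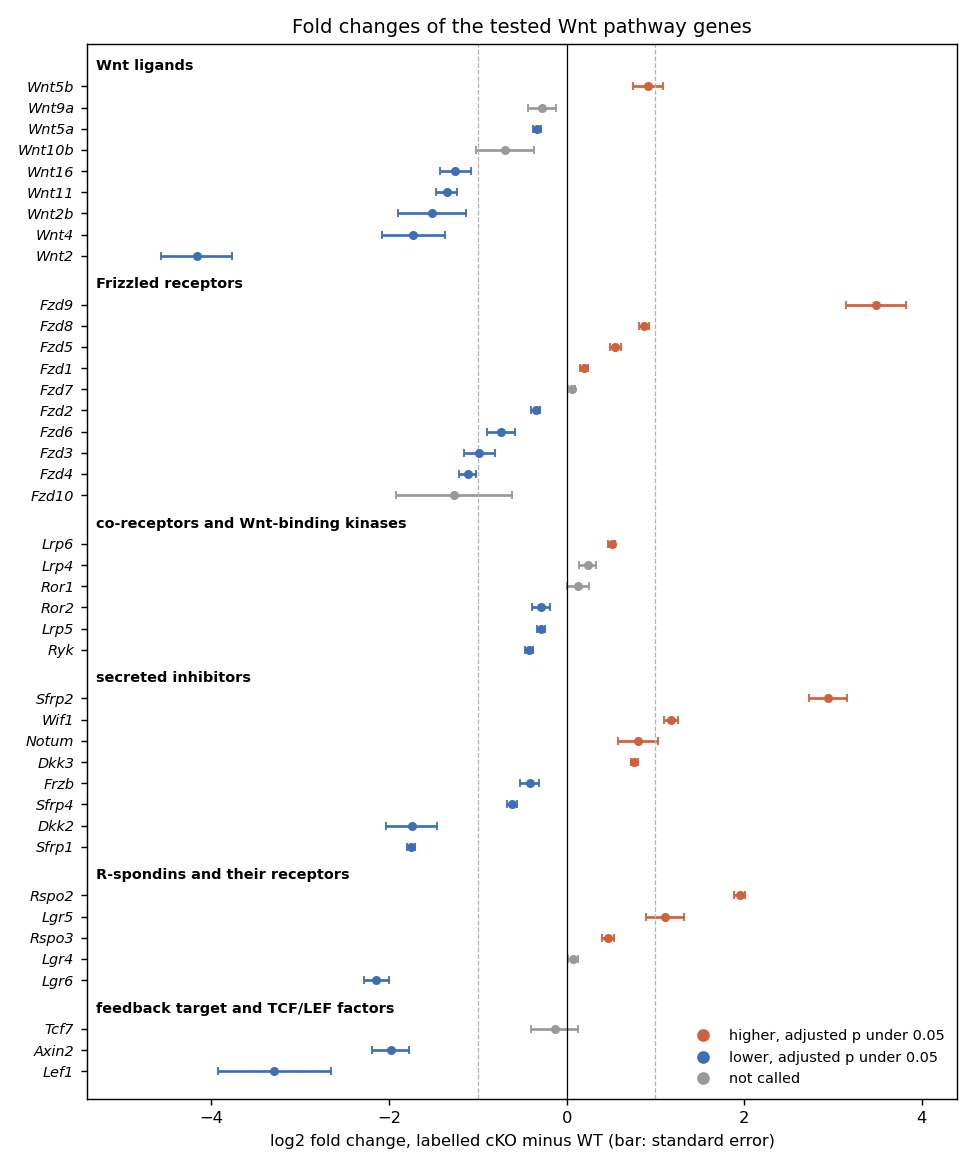
Log2 fold change (labelled cKO minus WT, edgeR) of the 41 tested members, grouped by role, with error bars of 1 standard error and the color giving the call. Ligands lie mostly to the left of 0 with *Wnt2* farthest at -4.16, whereas the inhibitors spread to both sides and both tested R-spondins lie to the right.

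Of the 19 Wnt ligands, 9 were tested, with a median log2 fold change of -1.25. Of these, 6 were lower (66.7%, beside 19.2% of all genes tested), 1 was higher (11.1%, beside 20.1%) and 2 were not called. *Wnt2*, a ligand of the beta-catenin branch (chromosome 6, 17988939 to 18030584 of mm39), had 109, 118 and 82 counts in WT and 8, 4 and 4 counts in the libraries labelled cKO. Every WT library was at least 82 counts and no library labelled cKO exceeded 8, a 17.9-fold lower level (log2 fold change -4.16, SE 0.40, adjusted p = 1.4e-07). *Wnt4*, known for its role in kidney and gonad development, had 70, 86 and 75 counts in WT and 14, 20 and 33 counts in the libraries labelled cKO, again without overlap (log2 fold change -1.73, SE 0.36, adjusted p = 0.000773). *Wnt2b*, a close relative of *Wnt2*, had 68, 78 and 52 counts in WT and 29, 11 and 26 counts in the libraries labelled cKO (log2 fold change -1.51, SE 0.38, adjusted p = 0.00394). Here too the lowest WT library, at 52 counts, lay above the highest library labelled cKO, at 29.

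*Wnt11*, a ligand best known for beta-catenin-independent signaling in cell movement, measured 20.3, 19.1 and 23.2 CPM in WT and 9.86, 7.62 and 7.09 CPM in the libraries labelled cKO (log2 fold change -1.35, SE 0.12, adjusted p = 5.84e-08). The lowest WT library was at 19.1 CPM and the highest library labelled cKO at 9.86 CPM, so the groups were well apart. *Wnt16*, a ligand made by osteoblasts that protects cortical bone, measured 4.98, 5.44 and 5.62 CPM in WT and 2.35, 2.06 and 2.31 CPM in the libraries labelled cKO (log2 fold change -1.25, SE 0.18, adjusted p = 1.67e-05), and the groups were apart. The sixth lower ligand was *Wnt5a*, the main activator of Ror receptors, which was the most abundant Wnt in both groups and was lower by a smaller step, with means of 116 CPM in WT and 92.1 CPM in the libraries labelled cKO (log2 fold change -0.33, adjusted p = 1.66e-05).

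*Wnt5b*, its close relative, was the only ligand called higher, with 131, 212 and 129 counts in WT and 282, 245 and 319 in the libraries labelled cKO (log2 fold change 0.92, adjusted p = 0.000287). This value is uncertain, because 1244 exon bases of *Wnt5b* are shared with *Fbxl14* on the opposite strand. *Fbxl14* had 1094 to 1409 counts per library and a log2 fold change of 0.17. The methods name a directional library kit, but the strand setting of the counting is not given in the sources used here. The ligands that were not called were *Wnt9a* (log2 fold change -0.27, adjusted p = 0.195) and *Wnt10b*, a ligand that favors bone over fat (log2 fold change -0.70, adjusted p = 0.104), whose libraries overlapped. Without WT replicate 3 *Wnt10b* was called (log2 fold change -0.88, adjusted p = 0.0421). *Wnt10b* also shares 489 exon bases with *Wnt1*, which had 2 to 14 counts. *Wnt3a*, *Wnt7a*, *Wnt8b* and *Wnt9b* were at 0 in all 6 libraries, and *Wnt3*, *Wnt6*, *Wnt7b*, *Wnt8a* and *Wnt10a* were untested, with *Wnt10a* at 0, 4 and 0 counts in WT and 11, 2 and 10 in the libraries labelled cKO.

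Levels can be compared between genes only per length, so CPM was divided by gene length in kilobases (RPKM). On this scale the summed ligand level was 26.7 ± 0.43 RPKM in WT (SD, n = 3) and 19.1 ± 0.19 RPKM in the libraries labelled cKO. *Wnt5a* took 55.5 ± 1.9% of that sum in WT and 61.7 ± 1.6% in the libraries labelled cKO. *Wnt11* went from 18.9 ± 1.6% to 10.4 ± 1.8%, and *Wnt5b* from 4.96 ± 1.0% to 13.1 ± 0.80%. The *Wnt5b* share carries the doubt over the exon bases shared with *Fbxl14*, so no order between *Wnt5b* and *Wnt11* was drawn.

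**Figure D2:**
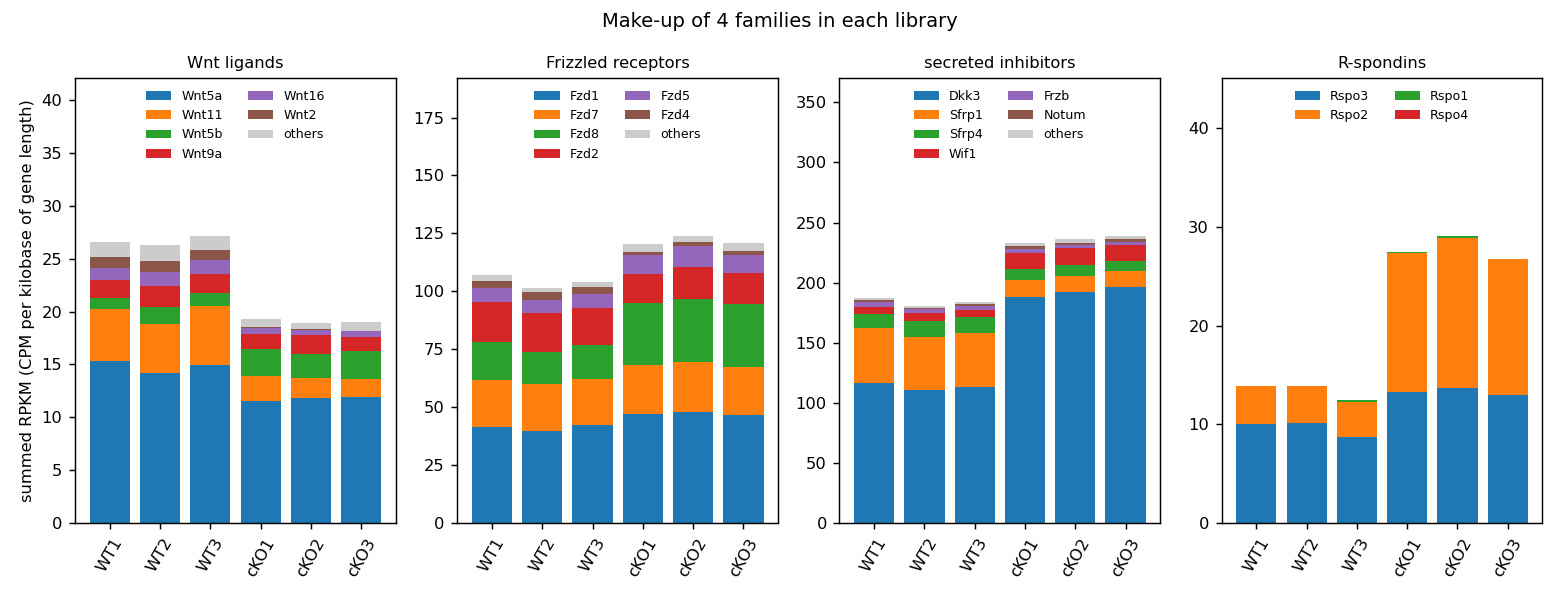
Summed level per length (RPKM, linear axis from 0) of the Wnt ligands, Frizzled receptors, secreted inhibitors and R-spondins, with a stacked bar for each of the 6 libraries and a color for each gene. *Wnt5a* leads the ligands and *Dkk3* the inhibitors in every library, while the *Sfrp1* segment takes 24.3% of the inhibitors in WT and 5.63% in the libraries labelled cKO.

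All 10 Frizzled receptors were tested, and 4 were higher (40%, beside 20.1% of all genes tested), 4 were lower (40%, beside 19.2%) and 2 were not called. *Fzd9* had 30, 22 and 6 counts in WT and 221, 150 and 247 counts in the libraries labelled cKO (log2 fold change 3.48, SE 0.34, adjusted p = 1.62e-07), an 11.2-fold difference. WT replicate 3 was lowest at 6 counts, and every library labelled cKO was above every WT library. *Fzd9* is a receptor whose loss in mice lowers bone formation. *Fzd4*, the receptor through which norrin acts on retinal vessels, measured 21.3, 21.8 and 22.7 CPM in WT and 8.84, 10.3 and 11.3 CPM in the libraries labelled cKO (log2 fold change -1.11, SE 0.098, adjusted p = 4.8e-08), without overlap.

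Of the remaining Frizzled genes, 6 were called with changes under 2-fold. *Fzd8* was higher by a log2 fold change of 0.87, *Fzd5* by 0.55 and *Fzd1* by 0.20. *Fzd3* was lower with a log2 fold change of -0.98, *Fzd6* with -0.74 and *Fzd2* with -0.35, so that the calls were split evenly by direction. *Fzd7* was not called (log2 fold change 0.055, adjusted p = 0.365), and neither was *Fzd10*, whose 44, 37 and 4 counts in WT were divided between libraries more unevenly than the 14, 12 and 6 counts in the libraries labelled cKO (log2 fold change -1.27, adjusted p = 0.14). Without WT replicate 3, the library with 4 counts, *Fzd10* was called lower (log2 fold change -1.75, adjusted p = 0.0153). *Fzd10* also shares 995 exon bases with *Fzd10os* on the opposite strand. That gene had 18, 10 and 6 counts in WT and 2, 8 and 2 in the libraries labelled cKO, so the *Fzd10* counts are uncertain. Per length, *Fzd1* was the leading Frizzled in both groups, with 39.4 ± 1.0% of the summed RPKM in WT and 38.7 ± 0.30% in the libraries labelled cKO. *Fzd8* went from 14.3 ± 0.86% to 22.4 ± 0.13% of the sum and passed *Fzd7* and *Fzd2*, which stood above it in WT. The family sum was 104 ± 2.7 RPKM in WT and 122 ± 1.9 RPKM in the libraries labelled cKO.

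Among the co-receptors, the paired Lrp5 and Lrp6 moved in opposite directions. *Lrp6* measured 249, 242 and 245 CPM in WT and 334, 357 and 357 CPM in the libraries labelled cKO, and was higher (log2 fold change 0.51, SE 0.040, adjusted p = 1.13e-08). *Lrp5*, whose loss causes low bone mass, measured 177, 173 and 181 CPM in WT and 144, 148 and 143 CPM in the libraries labelled cKO, and was lower (log2 fold change -0.29, SE 0.042, adjusted p = 2.38e-05). Per length the levels of both were alike in WT, with means of 18.2 RPKM for *Lrp5* and 18.0 RPKM for *Lrp6*, and they parted to 14.9 and 25.6 RPKM in the libraries labelled cKO. *Lrp4*, the anchor for sclerostin on bone cells, measured 11.1, 11.4 and 12.7 CPM in WT and 14.1, 13.2 and 14.2 CPM in the libraries labelled cKO. Its groups did not overlap, yet the difference missed the threshold (log2 fold change 0.24, SE 0.097, adjusted p = 0.0623). Without WT replicate 3 it passed (adjusted p = 0.0326), as it did with library size scaling alone (adjusted p = 0.0406).

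*Ryk*, a Wnt-binding receptor related to tyrosine kinases, was lower (log2 fold change -0.42, adjusted p = 4.42e-07). *Ror2*, a Wnt5a receptor, was lower by a small step (log2 fold change -0.29, adjusted p = 0.0354). That call was lost without WT replicate 2 or 3 and without cKO replicate 1 or 3, with an adjusted p of up to 0.182. *Ror1* was not called (log2 fold change 0.13, adjusted p = 0.45).

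**Figure D3:**
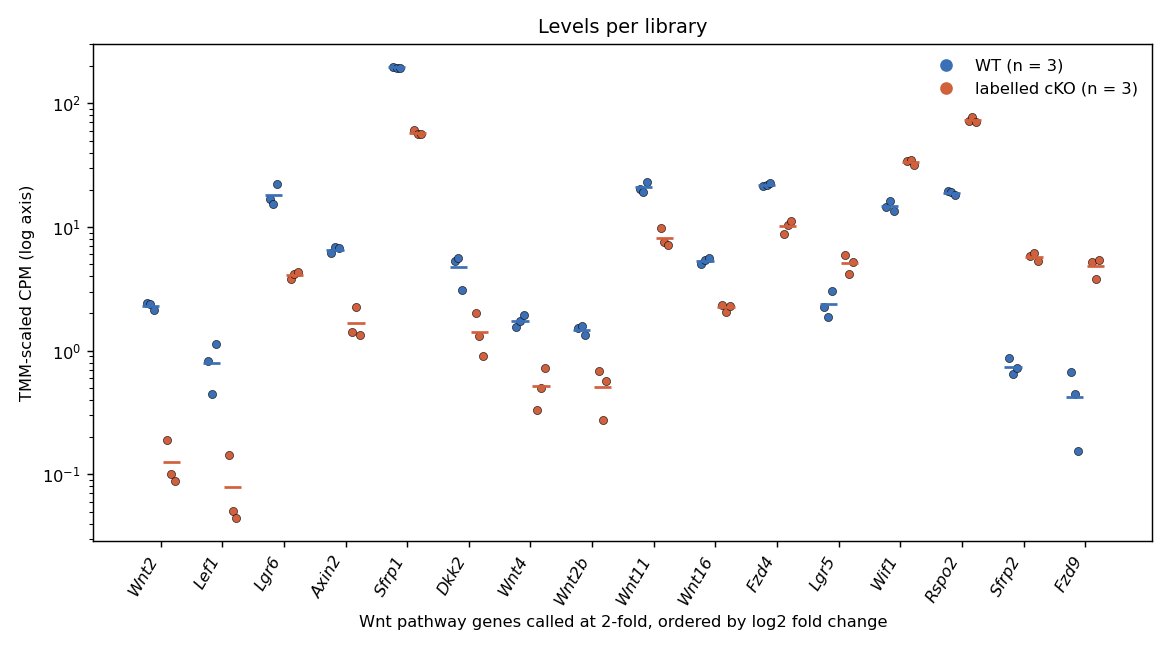
Level (CPM, log axis) of the 16 members called at 2-fold or more, ordered by log2 fold change, with a point for every library (blue WT, red labelled cKO, n = 3 each) and a bar at each group mean. The points of the groups do not overlap for any of these genes, which were picked by their call, and overlap is also absent for 49.2% of all genes tested. Of the 16, 5, from *Lgr5* to *Fzd9*, are higher in the libraries labelled cKO.

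The secreted inhibitors split evenly, with 4 of the 8 tested higher (50%, beside 20.1% of all genes tested) and 4 lower (50%, beside 19.2%). *Sost*, which encodes sclerostin (chromosome 11, 101853284 to 101857841 of mm39), and *Dkk1*, which encodes an Lrp5 and Lrp6 blocker, had 0 counts in all 6 libraries, which allows at most 0.0773 CPM in the library with the highest floor. *Dkk4* and *Dkkl1* were also at 0, and *Sfrp5* had 4 counts in 1 WT library. Neither sclerostin nor Dickkopf 1 transcripts were thus detectable at this depth in either group, and no comparison of them could be made.

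*Sfrp1*, which sequesters Wnt ligands (chromosome 8, 23901518 to 23939648 of mm39), had 8926, 9575 and 7547 counts in WT and 2566, 2258 and 2566 counts in the libraries labelled cKO, 3.36-fold lower (log2 fold change -1.75, SE 0.047, adjusted p = 5.4e-15). After scaling, the groups lay far apart at means of 195 ± 2.77 CPM in WT and 58.1 ± 2.51 CPM (SD, n = 3). *Sfrp2*, of the same family, moved the other way, with 39, 32 and 28 counts in WT and 245, 245 and 239 counts in the libraries labelled cKO, 7.71-fold higher (log2 fold change 2.95, SE 0.22, adjusted p = 4.19e-09). The lowest library labelled cKO had 239 counts and the highest WT library 39. *Sfrp4* and *Frzb*, the other 2 tested genes of this family, were lower by log2 fold changes of -0.62 and -0.41. Summed over this family, the level was 61.8 ± 0.30 RPKM in WT and 27.3 ± 0.93 RPKM in the libraries labelled cKO, since the difference in *Sfrp2* was small on this scale (0.346 to 2.67 RPKM) beside that in *Sfrp1* (44.7 to 13.3 RPKM).

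*Dkk2*, a Dickkopf with roles in bone mineralization, measured 5.33, 5.66 and 3.12 CPM in WT and 2.02, 1.31 and 0.903 CPM in the libraries labelled cKO (log2 fold change -1.74, SE 0.28, adjusted p = 8.13e-05). WT replicate 3 was the lowest of its group and was still above every library labelled cKO. *Wif1*, which binds Wnt proteins outside the cell, measured 14.4, 16.1 and 13.6 CPM in WT and 33.9, 34.5 and 31.8 CPM in the libraries labelled cKO (log2 fold change 1.18, SE 0.081, adjusted p = 1.61e-09). All 3 libraries labelled cKO were about alike, and all exceeded the WT libraries. *Notum*, an enzyme that removes the lipid from Wnt proteins, was higher by a log2 fold change of 0.80 (adjusted p = 0.00865), with 2037 exon bases shared with the antisense gene *Notumos*, which had 6 to 22 counts.

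*Dkk3*, a divergent Dickkopf that does not act as a classical Lrp6 blocker, was the most abundant member per length (113 RPKM in WT and 193 RPKM in the libraries labelled cKO), at 381 ± 10.6 CPM in WT and 647 ± 13.8 CPM in the libraries labelled cKO (SD, n = 3; log2 fold change 0.76, adjusted p = 1.61e-11). It made up 61.7 ± 0.62% of the summed inhibitor level per length in WT and 81.5 ± 0.82% in the libraries labelled cKO. The sum of all inhibitors was 184 ± 3.3 RPKM in WT and 236 ± 2.7 RPKM in the libraries labelled cKO. The inhibitor sum thus follows *Dkk3*, and its order between groups is opposite to that of the Sfrp and Frzb sum.

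Both R-spondins that could be tested were higher, beside 20.1% of all genes tested. *Rspo2*, which strengthens Wnt signaling by sparing Frizzled from ubiquitination (chromosome 15, 42884190 to 43034222 of mm39), measured 19.7, 19.2 and 18.1 CPM in WT and 72.4, 77.8 and 70.0 CPM in the libraries labelled cKO, 3.86-fold higher (log2 fold change 1.95, SE 0.062, adjusted p = 3.99e-14). The lowest library labelled cKO, at 70.0 CPM, was far above the highest WT library, at 19.7 CPM. *Rspo3*, its close relative, was higher by a log2 fold change of 0.46 (adjusted p = 2.18e-05). Per length, *Rspo3* was above *Rspo2* in WT (9.62 and 3.72 RPKM), and both were at a similar level in the libraries labelled cKO (13.3 and 14.4 RPKM). *Rspo1* had 2 to 14 counts and *Rspo4* had 4 counts in 1 WT library, and neither was tested.

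The R-spondin receptors did not move together. *Lgr6*, a marker of skin and other epithelial stem cells that is also found in osteoblast progenitors, measured 16.8, 15.2 and 22.3 CPM in WT and 3.78, 4.15 and 4.34 CPM in the libraries labelled cKO (log2 fold change -2.14, SE 0.14, adjusted p = 1.02e-09). *Lgr5*, the intestinal stem cell marker, had 101, 93 and 117 counts in WT and 249, 166 and 237 counts in the libraries labelled cKO (log2 fold change 1.11, SE 0.21, adjusted p = 0.000379). The groups were apart for both, in opposite directions. *Lgr4*, which made up 80.0 ± 3.7% of the summed Lgr level per length in WT and 91.7 ± 0.42% in the libraries labelled cKO, was not called (log2 fold change 0.073, adjusted p = 0.324).

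*Axin2*, a scaffold of the destruction complex that beta-catenin itself induces and the usual readout of the pathway (chromosome 11, 108811175 to 108841609 of mm39), had 277, 339 and 261 counts in WT and 60, 89 and 61 counts in the libraries labelled cKO. The lowest WT library stood at 261 counts and the highest library labelled cKO at 89, a 3.95-fold lower level (log2 fold change -1.98, SE 0.21, adjusted p = 4.04e-07). *Lef1*, a DNA-binding partner of beta-catenin, had 37, 22 and 44 counts in WT and 6, 2 and 2 counts in the libraries labelled cKO (log2 fold change -3.29, SE 0.64, adjusted p = 0.00043). Its direction was the same with any library left out, with log2 fold changes of -4.00 to -2.96, but the level in the libraries labelled cKO rests on 2 to 6 counts. *Lef1* also shares 1518 exon bases with the antisense gene *Lef1os1*, which had 0 to 4 counts. *Tcf7*, the related factor, had 89, 90 and 109 counts in WT and 78, 101 and 73 counts in the libraries labelled cKO. These overlapped, and the difference was not called (log2 fold change -0.13, SE 0.27, adjusted p = 0.737).

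Promoters of the members were searched for the letters that TCF and LEF factors are known to bind, since *Lef1* was among the lower genes. The letters were CAAAG preceded by AA, AT, TA or TT, on either strand, within the 250 bases before each RefSeq start (GRCm38.p6). Of 46 promoters of the 39 members in that table, 5 held a match (10.9%), beside 14.8% of all 32851 promoters. The promoters of members called lower held a match in 2 of 17 (11.8%) and those of members called higher in 1 of 8 (12.5%), so neither share stood above that of all promoters. These promoters belong to only 13 of the 20 lower members and 6 of the 13 higher members. The match among the higher members is in *Wnt5b*, 71 bases before a start, and is not printed. Both matches among the lower members are shown, with 40 bases on either side and the match in capitals, because they belong to *Lef1* and *Wnt11*, each at least 2-fold lower. The *Lef1* stretch is chr3:131156107-131156193 on the + strand with the match 147 bases before the most downstream of its 4 RefSeq starts, the other 3 having none, and the *Wnt11* stretch is chr7:98835021-98835107 on the + strand with the match 51 bases before the first of its 2 starts, the other having none.
Lef1: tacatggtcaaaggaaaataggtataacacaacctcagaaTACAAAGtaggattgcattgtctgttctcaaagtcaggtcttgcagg
Wnt11: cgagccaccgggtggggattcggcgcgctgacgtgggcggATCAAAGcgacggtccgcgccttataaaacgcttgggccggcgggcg
A match gives letters and not a bound site, and no binding was measured. The *Axin2* promoter held none of these letters in this window.

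Other genes of the pathway were described by the same fit. Of 69 named components, 63 were tested, and 10 were higher (15.9%, beside 20.1% of all genes tested), 25 were lower (39.7%, beside 19.2%) and 28 were not called. Over the alternative fits given below, the number called lower was 17 to 28. At 2-fold, 1 was higher (1.59%, beside 6.56%) and 2 were lower (3.17%, beside 4.64%), with a median log2 fold change of -0.13. Both genes for Wnt release were lower, *Wls*, which carries Wnt proteins to the surface (log2 fold change -0.31), and *Porcn*, the X-linked enzyme that adds their lipid (log2 fold change -0.49). Of the 24 genes of the destruction complex and Dishevelled, all tested, 11 were lower (45.8%, beside 19.2% of all genes tested), 0 higher (beside 20.1%) and 13 not called. The lower calls were small, led on the log2 scale by *Dact1* (-0.47), which binds Dishevelled, and *Apc2* (-0.36), a relative of the scaffold APC. *Ctnnb1*, which encodes beta-catenin, was not called, at 658 ± 19.9 CPM in WT and 699 ± 5.78 CPM in the libraries labelled cKO (log2 fold change 0.087, adjusted p = 0.0607).

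Receptor turnover and surface modulators had 4 higher (36.4%, beside 20.1% of all genes tested) and 6 lower (54.5%, beside 19.2%) of 11 tested. The lower genes included *Cthrc1*, a secreted protein of repairing matrix (28.1 to 7.44 CPM, log2 fold change -1.91), *Adgra2*, a coactivator of Wnt7 signaling (log2 fold change -1.44), *Tspan12*, a partner of *Fzd4* (log2 fold change -0.84), and the glypican *Gpc6* (log2 fold change -0.61). *Apcdd1*, a membrane inhibitor, was higher (log2 fold change 0.52). Nuclear factors were 5 higher (33.3%, beside 20.1% of all genes) and 3 lower (20%) of 15, the lower share being near the 19.2% of all genes. The corepressors *Tle4* (log2 fold change 1.18) and *Tle2* (0.51) were higher and *Tle1* (-0.84) was lower, with *Tcf7l2* higher (0.38) and *Tcf7l1* lower (-0.47). The planar polarity branch, which orients cells within a sheet, was 1 higher (9.09%) and 3 lower (27.3%) of 11, beside 20.1% and 19.2% of all genes, with *Prickle1* (-0.94), *Celsr3* (-0.70) and *Daam1* (-0.39) lower and *Daam2* (0.67) higher on the log2 scale.

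**Figure D4:**
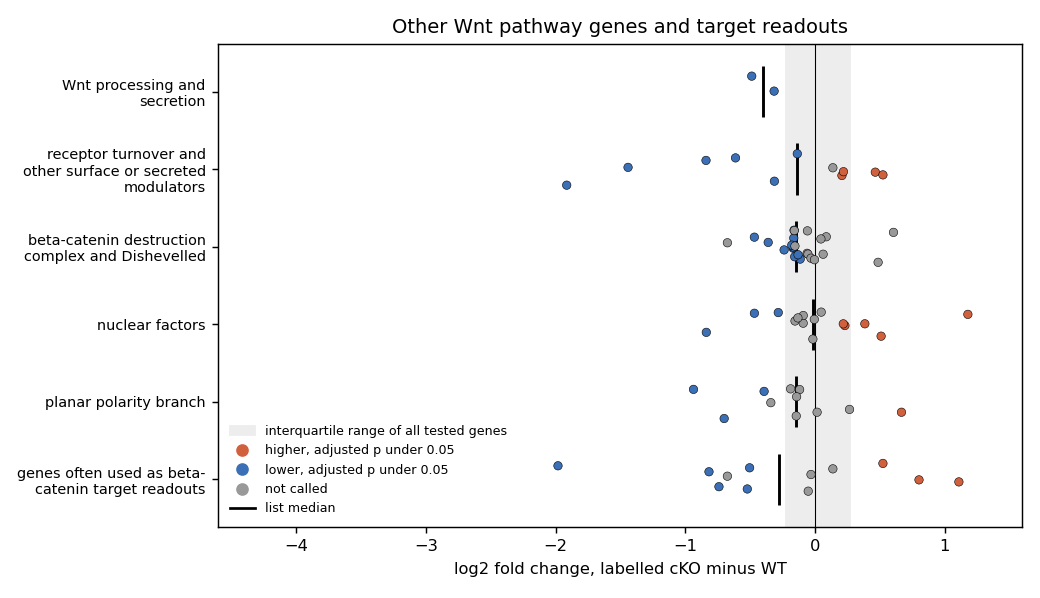
Log2 fold change (labelled cKO minus WT) of the other pathway genes and of target readouts, a point for every tested gene, colored by its call, with the list median as a bar and the interquartile range of all tested genes (-0.22 to 0.27) as a shaded band. Most destruction complex genes lie inside the band, and *Axin2* is the lowest of the target readouts at -1.98.

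Genes often used as readouts of beta-catenin were called in both directions. Of 12 tested, 5 were lower (41.7%, beside 19.2% of all genes), 3 were higher (25%, near the 20.1% of all genes) and 4 were not called, with a median log2 fold change of -0.28. Beside *Axin2*, the lower genes were *Tnfrsf11b*, which encodes the osteoclast inhibitor osteoprotegerin (483 to 274 CPM, log2 fold change -0.82), *Ccn4*, a matricellular protein also called WISP1 (-0.74), and the growth genes *Myc* (-0.52) and *Ccnd1* (-0.50). The higher genes were *Lgr5*, *Notum* and *Apcdd1*, with log2 fold changes of 1.11, 0.80 and 0.52. *Axin2*, *Lgr5* and *Notum* are members as well and *Apcdd1* is counted among the surface modulators, so these counts are not separate from those above.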

How the data were processed

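RNA sequencing libraries labelled as stimulated osteocytes (3 WT, 3 labelled cKO) were grouped by the genotype in the sample labels. Per the labels, 150 bp paired reads were aligned with HISAT2 2.0.5 and counted with featureCounts 1.55.0-p3, and the build was GRCm39 (mm39). The paper's methods name another featureCounts version and also RSEM, so the sources differ on how the counts were made. The authors deposited raw counts per gene, with no normalization, and gene lengths in bases. All count columns matched a library. Of counts from 1 to 10, 63.4 to 65.7% were even, so a small count can stand for fewer read pairs. SD and SE values include the spread between these libraries, and floors cover counting error only.

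From the deposited counts, edgeR 4.0.16 in R 4.3.3 was run (filterByExpr, TMM, glmQLFit, glmQLFTest) with genotype as the only term, on 17146 of 56748 genes, with Benjamini-Hochberg adjustment over these. Called means an adjusted p under 0.05, and 2-fold an absolute log2 fold change of at least 1. CPM used TMM-scaled library totals. The biological coefficient of variation was 8.36%. Alternatives were other scaling, DESeq2 1.42.0, limma 3.58.1 (voom), other filters, robust estimation, a replicate block, leaving out each library, and, added after seeing the data, counts halved and rounded up. Members, lists and tests were chosen with earlier results of these data known. Full values are given for members called at 2-fold and for *Sost*, *Dkk1*, *Lrp4*, *Lrp5*, *Lrp6*, *Axin2*, *Lef1* and *Tcf7*, and at most the 5 called genes with the largest change per pathway list are named. Exons of 31 members overlap a gene on the opposite strand in GENCODE M39. Coordinates are those of the deposited table, and promoters came from RefSeq (GRCm38.p6).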

Additional observations from a re-analysis of the deposited data

How the results depend on the processing

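Over the alternatives, members called higher numbered 12 to 14 and members called lower 18 to 21, with 4 to 6 and 9 to 13 at 2-fold, and the pathway components 9 to 11 higher and 17 to 28 lower. Of 609 alternative member fold changes, 598 kept their direction and side of the threshold. *Tcf7*, not called, ranged from -0.34 to 0.0703 on the log2 scale with 1 library left out. *Lrp4* was called with library size scaling alone (adjusted p = 0.0406) and without WT replicate 3, as were *Wnt10b* (adjusted p = 0.0421) and *Fzd10* (adjusted p = 0.0153) without WT replicate 3. *Ror2* lost its call with library size scaling alone (adjusted p = 0.052) and in 4 of 6 fits that left out a library, and the cause was not tested. A minimum of 10 counts in every library left 37 members tested, without *Wnt2*, *Lef1*, *Fzd9* and *Fzd10*, and halved counts left 39, without *Lef1* and *Fzd10*. Other scalings moved the median of all genes by at most 0.0216 on the log2 scale. Deviations of same-numbered libraries correlated at -0.0103 to 0.00228, and those of other pairs at -0.0112 to 0.0172. No pairing by number was seen, but values all near 0 cannot decide whether same-numbered cultures were prepared together. With the replicate block, 13 members were higher and 20 lower (5 and 12 at 2-fold), 3298 and 3098 of all genes were called in place of 3445 and 3285, and not every library correlated best with its own number. The 17 members under the filter on low counts were not compared.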
